A study of Mus musculus with 2 samples.

Results

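Among the knockout cells of this mouse embryonic stem cell experiment, 5027 of 9449 cells (53.2%, 95% interval 52.2 to 54.2) met a rule built on Prrx1, Bnc2, Col14a1 and Tac2. The rule took barcodes with at least 15000 UMIs, 500 or more genes and no more than 10% mitochondrial UMIs. UMIs, unique molecular identifiers, count captured RNA molecules. Of these barcodes it kept cells with 4 or more UMIs of the 4 genes in sum and fewer than 3 UMIs of Actc1, a cardiac actin. It also required that no more than 2 of the 7 genes Hoxc8, Hoxc9, Hoxc10, Hoxa9, Hoxd11, Cdx2 and Pitx1 were detected. The cells were thus chosen on measured values, so the levels of these genes, and the differences of all other genes between chosen and other cells, are descriptions and support nothing.

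The working label of the cells, Prrx1, Bnc2 and Col14a1 mesenchymal cells, did not describe most of them. Tac2 gave 72.6% of the 55081 rule UMIs, Bnc2 18.7%, Prrx1 5.17% and Col14a1 3.46%. Tac2 was detected in 4775 of the chosen cells (94.99%) and Bnc2 in 4037 (80.3%). Prrx1 was detected in 967 (19.2%) and Col14a1 in 953 (18.96%), and 294 cells (5.85%) held Prrx1, Bnc2 and Col14a1 together. They are called Tac2/Bnc2 cells below, after the 2 genes that led the rule.

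The study set D3 mouse embryonic stem cells of wild-type genotype, called the control, beside Zbtb16 knockout D3 cells, both on day 6 of differentiation towards cardiomyocytes. Its stated purpose was to find which subpopulation Zbtb16 regulates at the stage of the cardiovascular progenitor. Each genotype was 1 droplet library, and differences were therefore neither tested nor checked against replicates. Whether the knockout was 1 clone, and which stretch of Zbtb16 was removed, are not given in the sources used here. All intervals cover counting error only.

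The knockout library held 357324373 UMIs and the control library 308465930, and the series kept 15803 cells in all. The median was 30513 UMIs in the 9449 kept knockout cells and 37324 in the 6354 kept control cells. The libraries shared 16 of the kept barcodes. Zbtb16, the targeted zinc finger gene, stood at 0.616 CPM (0.509 to 0.738) in the Tac2/Bnc2 cells and at 1.46 CPM (1.27 to 1.66) in the other knockout cells. CPM is a gene's UMI sum over a group of cells, scaled to 1 common total. In the control library Zbtb16 stood at 22.9 CPM (22.0 to 23.8) in cells that met the same rule and at 21.9 CPM (21.2 to 22.6) in the rest.

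Lateral plate mesoderm gives rise to heart, limb and body wall mesenchyme and the mesothelium that covers internal organs, and related mesoderm outside the embryo builds the allantois and amnion. Prrx1 is a homeobox factor of limb and craniofacial mesenchyme, Bnc2 a zinc finger protein of the basonuclin family, and Col14a1 a collagen that sits on the surface of fibrils. Tac2 encodes the precursor of the neuropeptide neurokinin B, and Ror1 a receptor for the signalling protein Wnt5a.

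Tac2 stood at 212 CPM (210 to 214) in the Tac2/Bnc2 cells, 32.4 in the other knockout cells, 99.4 in control cells that met the rule and 10.5 in other control cells. Detection was compared after every cell had been thinned to 15000 UMIs. Tac2 then had a UMI in 84.8% of Tac2/Bnc2 cells (94.99% unthinned) and in 29.3% of the other knockout cells (44.1% unthinned). In 426 endothelial-like knockout cells the share was 8.69% (20.9% unthinned). Of these cells 34 were themselves Tac2/Bnc2 cells and were not left out, so their values are not a clean measure of background. The median depth was 31576 UMIs in the Tac2/Bnc2 cells, 29238 in the other knockout cells and 39641 in the endothelial-like cells. Knockout barcodes with 10 to 100 UMIs, which hold mainly free RNA, had Tac2 at 118 CPM, Bnc2 at 33.2, Prrx1 at 12.8 and Col14a1 at 8.42. None of the 5 listed tachykinins and tachykinin receptors other than Tac2 reached 2 CPM over all knockout cells.

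Bnc2 stood at 54.8 CPM (53.7 to 55.8) in the Tac2/Bnc2 cells against 20.8 in the other knockout cells, and at 26.3 against 7.01 CPM in control cells that did and did not meet the rule. After thinning it was detected in 55.0% of Tac2/Bnc2 cells (80.3% unthinned), 28.3% of other knockout cells (44.0% unthinned) and 4.46% of endothelial-like knockout cells (11.3% unthinned).

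Prrx1 showed another order. It stood at 15.1 CPM (14.6 to 15.7) in the Tac2/Bnc2 cells and 6.35 in the other knockout cells, but at 40.2 CPM (39.0 to 41.4) in control cells that met the rule and 13.0 in other control cells. Its thinned detection was 13.3% in the Tac2/Bnc2 cells (19.2% unthinned), 6.92% in other knockout cells (10.9% unthinned) and 38.7% in control cells that met the rule (55.3% unthinned). Endothelial-like knockout cells had Prrx1 in 4.46% of cells after thinning (11.03% unthinned). The Prrx1 level of the Tac2/Bnc2 cells thus lay near that of control cells outside the rule and near that of the free RNA in their own library. Their Col14a1 level also lay near that of the free RNA, and the part of free RNA in either was not tested.

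Col14a1 was the lowest of the 4, at 10.1 CPM (9.65 to 10.6) in the Tac2/Bnc2 cells, 3.49 in other knockout cells, 6.85 in control cells that met the rule and 2.20 in other control cells. Its thinned detection was 11.4% in Tac2/Bnc2 cells (18.96% unthinned), 4.64% in other knockout cells (7.89% unthinned) and 3.99% in endothelial-like knockout cells (7.51% unthinned). Ror1, which the rule did not use, stood at 20.9 CPM (20.3 to 21.6) in the Tac2/Bnc2 cells, 13.5 in other knockout cells, 7.90 in control cells that met the rule and 4.35 in other control cells. The orders of Ror1 and Bnc2 over the 4 groups differed only in the middle: Ror1 was higher in the other knockout cells than in control cells that met the rule, and Bnc2 lower.

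**Figure D1:**
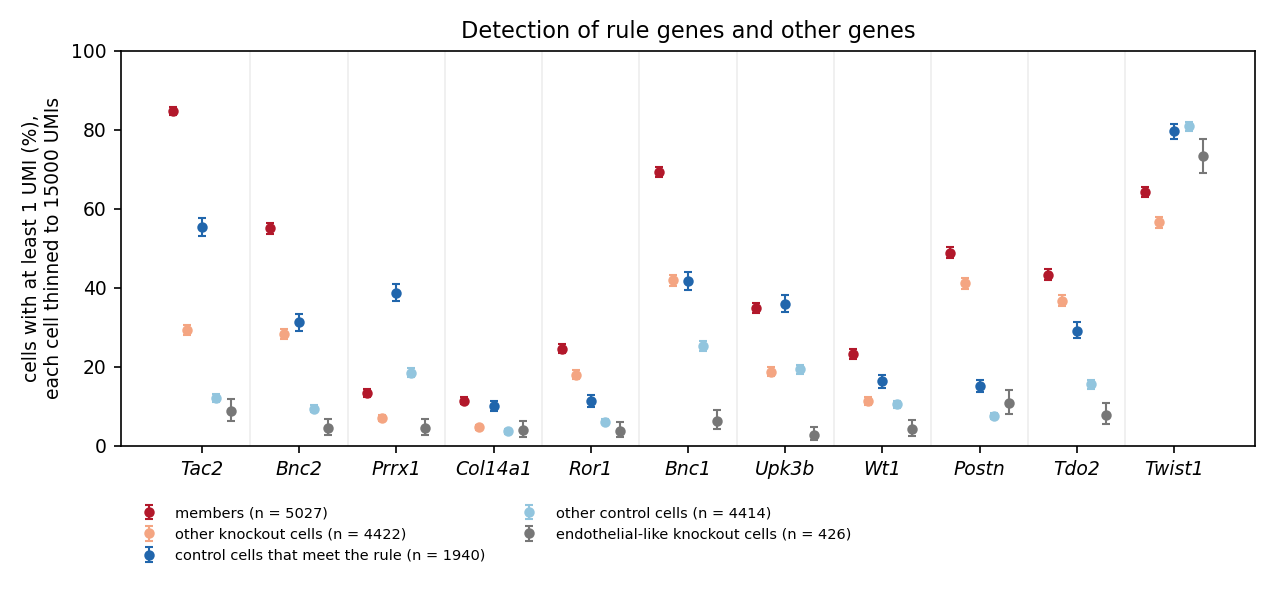
Share of cells with at least 1 UMI of each gene (percent, vertical axis) after thinning every cell to 15000 UMIs, with exact 95% binomial intervals, in 5 groups of cells. Tac2 was detected in 84.8% and Prrx1 in 13.3% of the Tac2/Bnc2 cells (called members in the key), against 55.4% and 38.7% of control cells that met the same rule.

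Of the Tac2/Bnc2 cells, 3503 (69.7%) reached 4 UMIs through Tac2 alone, 1619 (32.2%) through the other 3 genes, 903 in both ways and 808 in neither way by itself. A cell held between 4 and 140 rule UMIs, with a median of 8. The 669 members with exactly 4 rule UMIs had Bnc1 at 84.2 CPM, Upk3b at 31.6, Hand1 at 1402, Postn at 239 and Ror1 at 20.8. The 782 knockout cells with 3 rule UMIs had Bnc1 at 79.4, Upk3b at 30.8, Hand1 at 1408, Postn at 202 and Ror1 at 19.4. Among these genes Postn differed most over the threshold. The Hox part of the rule alone kept out 305 knockout cells, and the Actc1 part alone 28.

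The share of cells that met the rule depended on depth. With each cell thinned to 15000 UMIs, 30.5% of knockout cells (29.5 to 31.4) and 9.69% of control cells (8.98 to 10.4) met it. Without thinning the control share was 30.5% (29.4 to 31.7), or 1940 of 6354 cells. The control cells that met the rule had a median of 44304.5 UMIs.

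The Tac2/Bnc2 cells did not form a cluster of their own. Of the 15 nearest neighbours of such a cell, 72.8% were also Tac2/Bnc2 cells, in a space computed without the rule genes, beside 53.2% of all knockout cells. Of 14 clusters of all knockout cells, the 7 largest were each between 47.4% and 70.3% Tac2/Bnc2 cells. They were led by genes of mitosis such as Ube2c and Nusap1, by histone genes, by Ptger3 and Mxd4, or by Hoxb1. The rule was read on unthinned cells, and the share that met it depended on depth. The part of depth in the differences between clusters was not tested. Few Tac2/Bnc2 cells lay in the clusters led by the endothelial cadherin Cdh5 (7.33%), by the pluripotency-linked Dppa5a (5.61%) and by the endoderm genes Spink1, Ttr and Apob (7.18%). The cluster led by Myh7, Tagln and Cnn1, genes of contractile cells, had 17.5%, and the cluster led by Lefty2, Mmp9 and Hoxa10 24.4%. The globin cluster had 0 of 35 cells, with an approximate upper limit of 8.57%, which is not an exact interval.

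**Figure D2:**
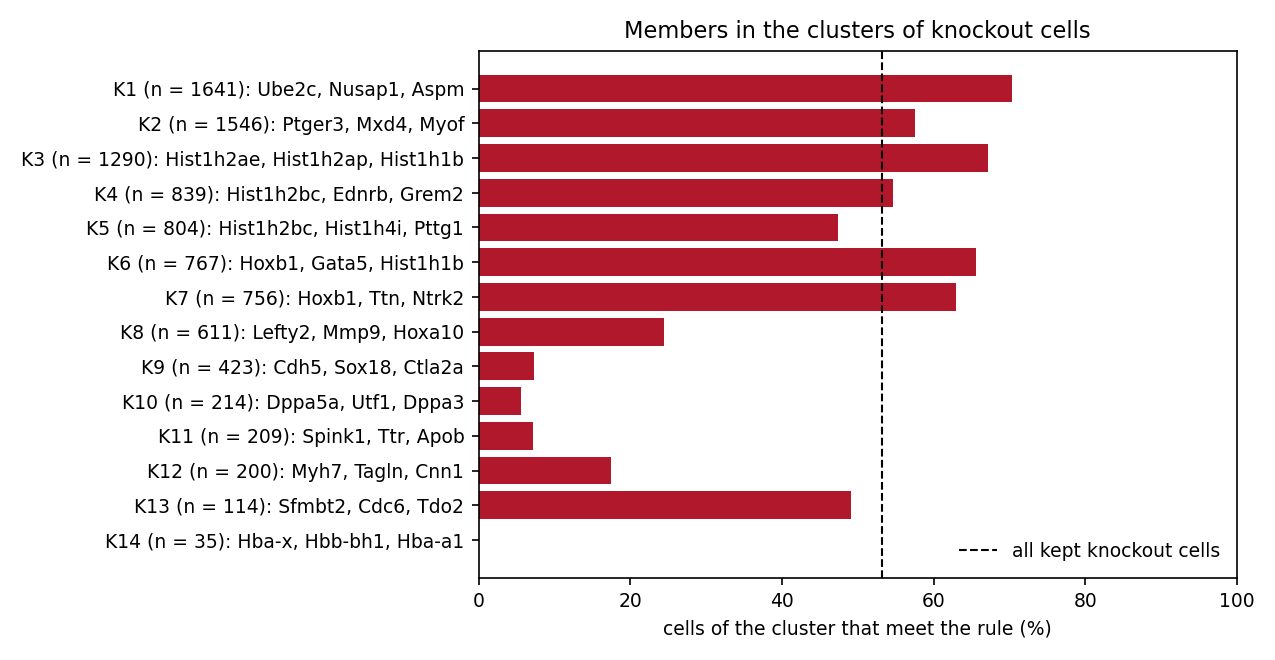
Share of Tac2/Bnc2 cells (percent, horizontal axis) in each of 14 clusters of knockout cells, labelled by cell number and 3 leading genes, with the share over all knockout cells dashed. The 7 largest clusters lie between 47.4% and 70.3%, and the clusters led by Cdh5, Dppa5a and Spink1 lie under 8%. The rule was read on unthinned cells, so the shares also depend on depth.

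Against all other knockout cells, the Tac2/Bnc2 cells were higher in a group of genes known from mesothelium and its precursors, and lower in genes of blood, endothelium, endoderm and pluripotent cells. Of 11519 genes at 2 CPM or more over all knockout cells, rule genes left out, 138 (1.2%) were higher by 1.5-fold or more and 580 (5.04%) lower by as much. The median log2 ratio over all 11519 was 0.00. The named genes with the largest ratios were Prph, an intermediate filament protein (39.4 against 17.1 CPM), Upk3b, a uroplakin of mesothelium (37.7 against 17.9), the zinc finger factor Gata5 (42.5 against 20.8) and Bnc1, the other basonuclin (96.2 against 48.4). Next came the semaphorin receptor Plxna4 (60.7 against 31.0), the matrix protein Smoc2 (337 against 181), the retinoic acid binding protein Crabp1 (96.1 against 51.4) and the adhesion protein Svep1 (84.9 against 45.7). Plxna2, Npnt, Robo2, Pdzrn3, Gas1, Tox3 and Dpf3 were between 1.74- and 1.82-fold higher.

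The named genes with the largest ratios on the lower side were those of other cell classes. The embryonic globin Hba-x stood at 1.89 against 169 CPM, Dppa5a at 9.07 against 154, the endoderm carrier protein Ttr at 9.94 against 137, and Cdh5 at 4.66 against 47.2. Of the 426 endothelial-like knockout cells, called by at least 2 UMIs in at least 3 markers, 34 were Tac2/Bnc2 cells. The same held for 15 of 206 endoderm-like, 14 of 198 pluripotent-like and 0 of 29 haematopoietic cells. Of the lists of these classes, 7 of 7 measured haematopoietic, 8 of 8 endoderm, 8 of 8 pluripotent and 12 of 13 endothelial genes were lower by 1.5-fold or more. A second comparison was added after the data had been seen. It left these 4 classes out of both sides, and the cells rich in the Hox-part genes out of the other side, with 4964 Tac2/Bnc2 cells and 3329 others.

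In this class-free comparison 25 genes (0.217%) were higher by 1.5-fold or more and 139 (1.21%) lower, and the median over all genes was -0.01 on the log2 scale. The medians of the endothelial, endoderm, pluripotent and haematopoietic lists, which had been -2.27, -3.33, -2.37 and -4.84, became 0.02, -0.32, -0.15 and -0.14. The largest named differences were Prph (40.3 against 21.2 CPM), the cadherin Cdh6 (37.7 against 23.0), Upk3b (38.4 against 23.6), Gata5 (43.3 against 26.8) and Npnt (27.5 against 17.9). Bnc1 stood at 97.7 against 64.9 CPM, Svep1 at 86.1 against 57.4 and Smoc2 at 343 against 239. The median depth of the comparison cells was 26643 UMIs, below that of the Tac2/Bnc2 cells, and its part in these ratios was not tested.

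The epicardial and mesothelial list had the highest median of the lists with 5 or more measured genes, in both comparisons. Of its 13 genes 7 were measured, and 5 of these were higher by 1.5-fold or more and 0 lower against all other knockout cells, with a median log2 ratio of 0.80. Against the class-free cells 2 were higher and 0 lower, with a median of 0.49. Wt1, a zinc finger factor of epicardium and mesothelium, stood at 20.9 against 8.43 CPM, and at 21.2 against 10.4 in the class-free comparison. Upk1b, another uroplakin, stood at 11.1 against 5.92 and Lrrn4, a leucine-rich repeat protein, at 86.5 against 49.9. The other 2 measured genes did not pass 1.5-fold: Krt19 stood at 53.4 against 59.7 CPM and Tcf21, a factor of epicardial derivatives, at 7.33 against 6.24. The defining genes Tbx18, Aldh1a2 and Msln stood at 0.16, 0.23 and 0.02 CPM in the Tac2/Bnc2 cells. The cells were therefore not called mesothelial or epicardial.

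These genes were also higher in Tac2/Bnc2 cells inside the clusters. In each of the 7 largest clusters Upk3b, Prph and Wt1 had more CPM in the Tac2/Bnc2 cells than in the other cells of that cluster, and Bnc1 did so in 6 of the 7. In the largest cluster, led by Ube2c, Bnc1 stood at 123 against 92.1 CPM, Upk3b at 40.1 against 27.1 and Wt1 at 27.0 against 16.5. In the cluster led by Hoxb1, Ttn and Ntrk2, Bnc1 stood at 83.2 against 84.1.

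The levels of these genes followed the number of rule UMIs, among cells that met the Actc1 and Hox parts of the rule and were thinned to 15000 UMIs. Bnc1 stood at 42.7 CPM in 1971 cells with 0 rule UMIs, 76.0 at 1 UMI, 89.7 at 2 to 3, 94.0 at 4 to 5, 102 at 6 to 9, 103 at 10 to 15 and 114 in 91 cells with 16 to 32. Prph went from 13.4 CPM in the lowest bin to 104.8 in the highest, Lrrn4 from 45.5 to 120.1, Smoc2 from 159 to 464 and Upk3b from 17.1 to 61.5. The largest step for Bnc1 lay between 0 and 1 UMI, where the endothelial receptor gene Kdr also went from 118 to 47.4 CPM. Postn, a matricellular protein, ran the other way above 1 UMI, at 238 CPM with 1 UMI, 162 with 4 to 5 and 52.0 with 16 to 32. Tdo2, which encodes a tryptophan-degrading enzyme, went from 117 CPM at 1 UMI to 41.0 in the highest bin. Ror1 rose and then fell. It stood at 12.6 CPM with 0 rule UMIs, 23.0 with 4 to 5, 15.8 with 10 to 15 and 13.9 in the highest bin.

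**Figure D3:**
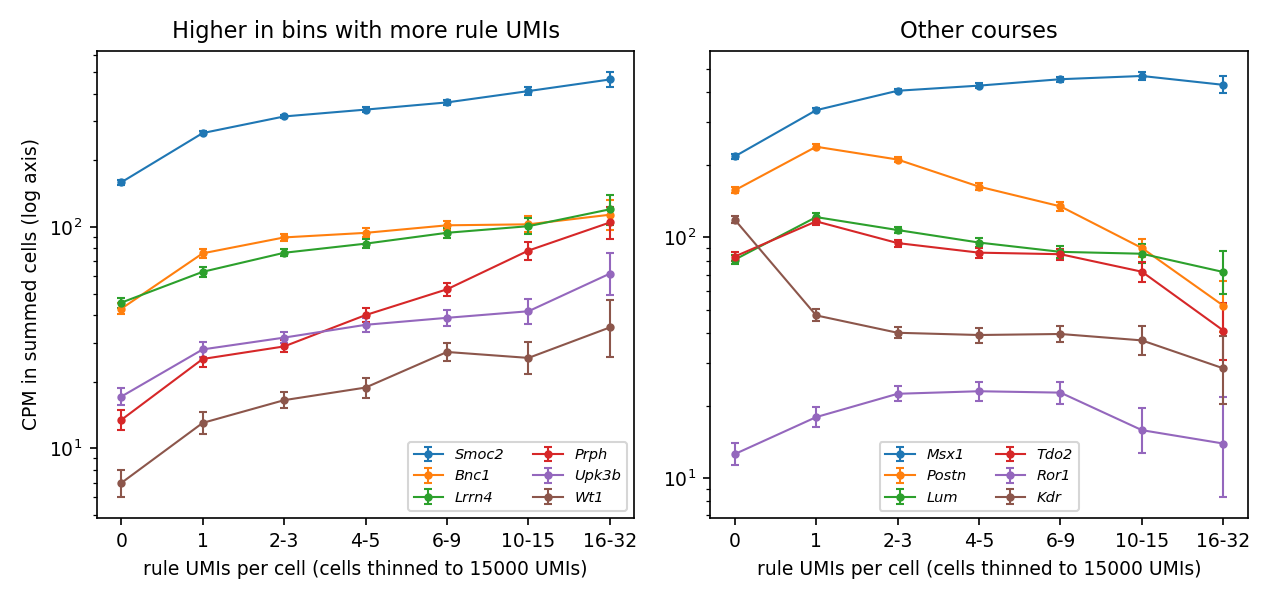
Summed CPM (log axis) of 12 genes in knockout cells binned by rule UMIs (horizontal axis), every cell thinned to 15000 UMIs, with exact 95% Poisson intervals. Bnc1 runs from 42.7 to 114 CPM and Prph from 13.4 to 104.8, while Postn goes from 238 CPM at 1 UMI to 52.0 in the highest bin.

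Choosing cells on a gene's own UMIs raises that gene by the choice itself. When cells were chosen on a random part holding about 50% of their UMIs and read in the other part, Tac2 stood at 195 against 41.4 CPM, Bnc2 at 48.3 against 25.7, Prrx1 at 14.0 against 7.49 and Col14a1 at 9.41 against 4.00. Bnc1 stood at 94.6 against 48.8 and Upk3b at 36.5 against 17.5 in the same reading. This choice used a threshold below 4 rule UMIs and took 5365 cells against 4084 others. They are thus not the same set as the Tac2/Bnc2 cells.

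The lists that the label would lead one to read first differed little. Of 25 measured lateral plate and limb mesenchyme factors 2 were higher by 1.5-fold or more and 1 lower against all other knockout cells, with a median log2 ratio of 0.31. Against the class-free cells 0 were higher and 0 lower, with a median of 0.07. Msx1, a homeobox factor, stood at 415 against 256 CPM and at 422 against 311 in the class-free comparison, and Twist1, a helix-loop-helix factor of mesenchyme, at 151 against 122 and at 153 against 137. Of 25 measured genes of fibrillar and interstitial matrix 0 were higher and 1 lower (Fbn2, at 60.4 against 99.6 CPM), with a median of 0.34, and of 0.01 in the class-free comparison. Fn1, fibronectin, stood at 1045 against 811 CPM, and Col1a1, a chain of collagen I, at 214 against 169, then at 217 against 223 in the class-free comparison. The stromal receptors had a median of 0.26 and of -0.01, with Pdgfra at 133 against 91.3 CPM and Cdh11 at 180.2 against 125. These mesenchymal genes were thus found in the Tac2/Bnc2 cells and in the other class-free knockout cells, at levels within 1.5-fold of each other for 25 of the 25 lateral plate factors and 24 of the 25 matrix genes.

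Smooth muscle genes had a median of -0.03, and of -0.12 in the class-free comparison, where 0 of 13 were higher and 2 lower. The 2 were Tagln (126 against 349 CPM) and Cnn1 (2.67 against 8.44). Acta2, smooth muscle actin, stood at 987 against 1259. Of 10 measured cardiomyocyte genes 6 were lower and 0 higher in the class-free comparison, with a median of -0.65, and the rule itself had kept out cells with Actc1. Myl7, an atrial light chain, stood at 4.21 against 26.6 CPM and Ttn, titin, at 6.10 against 22.5. In the cluster led by Myh7, Tagln and Cnn1, which was 17.5% Tac2/Bnc2 cells, Tagln stood at 2486 CPM, and in the 7 largest clusters it lay between 83.6 and 152 CPM.

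FGF ligands act through receptor tyrosine kinases and the MAP kinase cascade, which turns on feedback genes such as Dusp6, the Sprouty genes and the Etv factors. Of 12 measured FGF genes 7 were lower by 1.5-fold or more and 1 higher against all other knockout cells, with a median of -0.76. In the class-free comparison 7 were lower and 0 higher, with a median of -0.64. The gene on the higher side was the receptor Fgfr3, at 19.7 against 12.7 CPM, then at 20.05 against 16.3. Dusp6 stood at 14.2 against 27.4 CPM in the class-free comparison, Etv4 at 0.796 against 3.95, Spry4 at 0.764 against 2.81 and the ligand Fgf8 at 0.458 against 3.43. The receptor Fgfr1 was near equal, at 93.3 against 100.2 CPM. Levels also differed between clusters. Dusp6 stood at 71.4 CPM in the cluster led by Lefty2 and 81.7 in the cluster led by Myh7, where few Tac2/Bnc2 cells lay, and between 9.35 and 19.1 CPM in the 7 largest clusters. Within those 7 clusters it lay between 9.64 and 18.1 CPM in Tac2/Bnc2 cells and between 9.02 and 21.3 in the others, lower in the Tac2/Bnc2 cells in 4 of the 7. Fgf3, another ligand, was lower in the Tac2/Bnc2 cells in 7 of the 7. Etv4 was lower in 7 of the 7 as well, but on only 4 to 54 UMIs per cluster. In the cluster led by Ube2c, Fgf3 stood at 6.06 against 11.6 CPM and Etv4 at 0.598 against 0.976. Fgf8 and Spry4 were lower in 5 of the 7, on 4 to 30 and 14 to 53 UMIs per cluster. At such counts the directions of Etv4, Fgf8 and Spry4 within a cluster are uncertain.

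Wnt4, a secreted ligand, stood at 12.9 against 37.2 CPM in the class-free comparison, and its highest levels were 133 CPM in the cluster led by Myh7 and 68.9 in that led by Lefty2. It was lower in the Tac2/Bnc2 cells in 7 of the 7 largest clusters, by as little as 6.45 against 6.48 CPM and by as much as 12.2 against 25.2. The cyclin gene Ccnd1 stood at 30.1 against 74.8 CPM, with 313 CPM in the cluster led by Myh7 and 151 in that led by Lefty2, and it was lower in the Tac2/Bnc2 cells in 6 of the 7 largest clusters.

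Of 19 axon guidance and adhesion genes 6 were higher by 1.5-fold or more and 0 lower against all other knockout cells, with a median of 0.34, and 0 were either in the class-free comparison, with a median of 0.15. Slit2, a guidance ligand, stood at 155 against 96.5 CPM and its receptor Robo2 at 87.4 against 48.9. Of 7 hedgehog genes 2 were higher, and Gas1, a coreceptor, stood at 204 against 116 CPM. Of 18 genes of extraembryonic mesoderm and allantois 3 were higher and 1 lower, with a median of 0.44, and of 0.15 in the class-free comparison. Hand1, a factor of extraembryonic and lateral mesoderm, stood at 1468 against 976 CPM, then at 1492 against 1275. S-phase genes had a median of -0.11 and genes of G2 and M phase 0.10, with 0 of 20 past 1.5-fold in each list. In the class-free comparison the medians were -0.04 and 0.22, again with 0 of 20 past 1.5-fold in each. The G2 and M phase list then summed to 3589 CPM in the Tac2/Bnc2 cells against 3097 in the others.

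**Figure D4:**
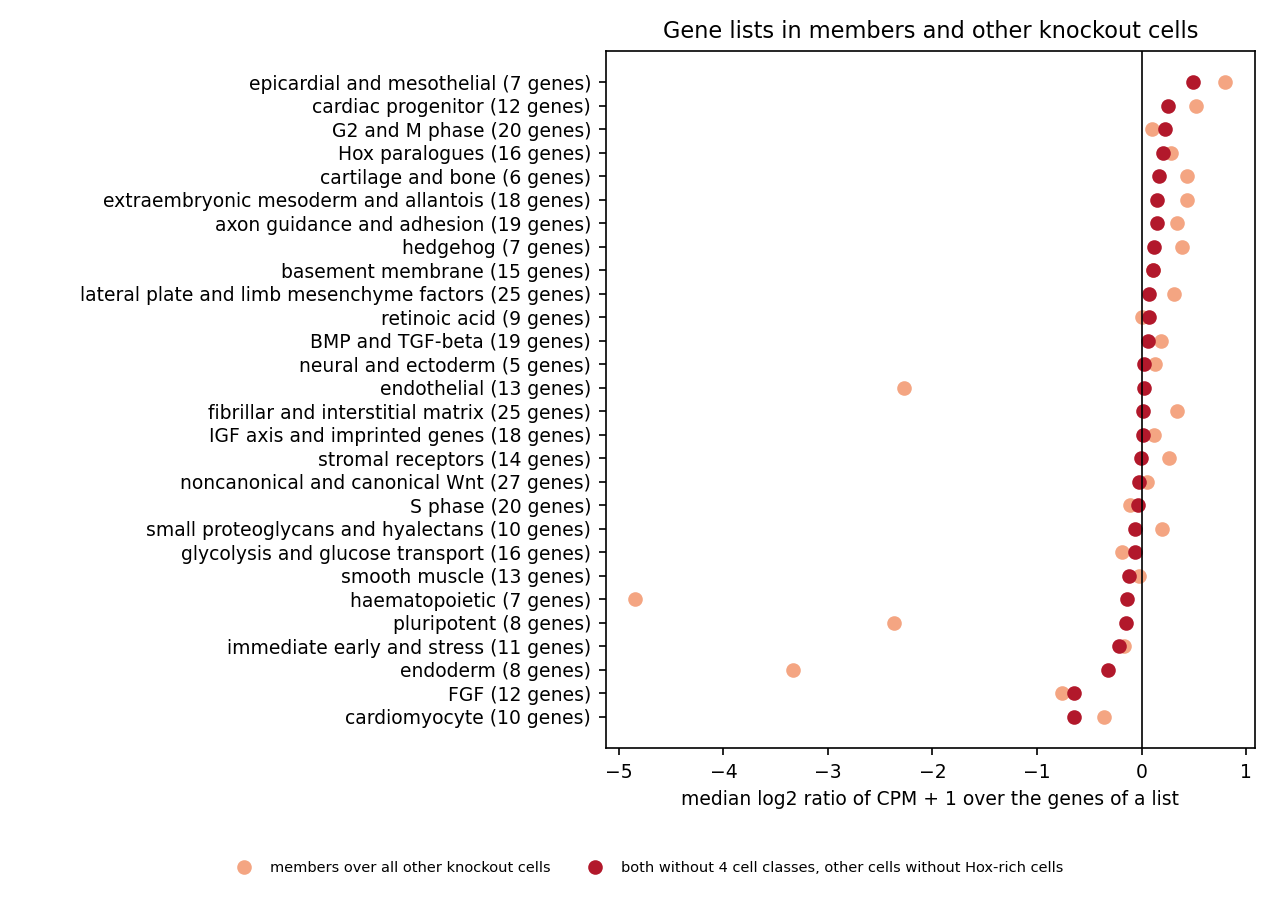
Median log2 ratio of CPM plus 1 (horizontal axis) over the measured genes of each list with 5 or more, for Tac2/Bnc2 cells against all other knockout cells and against the class-free cells. The endothelial list goes from -2.27 to 0.02 and the matrix list from 0.34 to 0.01, while the epicardial and mesothelial list stays highest (0.80 and 0.49) and the FGF list stays low (-0.76 and -0.64).

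Prrx1 and Col14a1 marked a smaller set of cells than Tac2 and Bnc2. Over all knockout cells thinned to 15000 UMIs, Col14a1 was detected in 24.0% of the 976 cells with Prrx1 and in 6.40% of the cells without it. Bnc2 did not follow Prrx1 (43.3% against 42.4%), and Tac2 was detected in fewer of the cells with Prrx1 (52.3% against 59.5%). For the other pair, Tac2 had a UMI in 67.5% of cells with Bnc2 and 52.3% of cells without.

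Inside the Tac2/Bnc2 cells, the 967 cells with Prrx1 and the 4060 without it had near equal median depths, 31212 and 31637.5 UMIs. Cells with Prrx1 had Twist1 at 362 CPM against 99.8, the homeobox factor Hoxb1 at 84.8 against 14.5, Rgs5, a regulator of G-protein signalling known from pericytes, at 99.3 against 34.4, and Col9a1, a chain of collagen IX, at 29.8 against 10.5. Sfrp1, a secreted Wnt inhibitor, stood at 119 against 46.9 and the homeobox factor Meis1 at 84.5 against 34.7. Lower in the cells with Prrx1 were Gas6, a ligand of the TAM receptors (68.9 against 193), the IGF binding protein Igfbp2 (264 against 643), Tdo2 (47.1 against 112), the small proteoglycan Lum (48.2 against 108) and Postn (92.5 against 183). Bnc1 (87.7 against 98.3) and Bnc2 (51.6 against 55.5) were near equal. Without a group of 140 cells rich in markers of other classes, described below, Twist1 stood at 349 against 101 CPM, Hoxb1 at 88.6 against 14.8 and Tdo2 at 49.1 against 114.

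Members that reached 4 UMIs without Tac2, 1619 cells, differed from the other members by 1.5-fold or more in few genes. Of the genes compared 54 (0.469%) were higher and 10 (0.0868%) lower. Hoxb1 stood at 46.6 against 16.9 CPM, Twist1 at 219 against 109 and Spink1 at 12.5 against 31.6. Of the 1619 cells, 903 also reached 4 UMIs through Tac2 alone. Their median depth was 38552 UMIs in the 1619 cells, against 31576 in all Tac2/Bnc2 cells, and its part was not tested.

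The 387 cells with both Prrx1 and Col14a1 differed more from the 3494 with neither. Twist1 stood at 432 against 87.1 CPM, Rgs5 at 130.1 against 32.0, Col9a1 at 40.3 against 8.38, Tdo2 at 32.4 against 120.1 and Lum at 39.0 against 112. Control cells that met the rule showed the same directions for these genes, also chosen on a UMI of Prrx1. In 1073 control cells with Prrx1 and 867 without, Twist1 stood at 418 against 127 CPM, Hoxb1 at 203 against 109, Rgs5 at 209 against 58.6, Tdo2 at 25.7 against 131 and Lum at 17.3 against 95.1. The mesothelial genes had other sizes in the libraries, a difference that was not tested. Upk3b stood at 30.2 against 89.5 CPM and Bnc1 at 36.3 against 68.5 in these control cells, while the corresponding values in the knockout cells were 25.5 against 40.6 and 87.7 against 98.3. Split by Col14a1 alone, with 437 cells with it and 1503 without, the control cells differed less. Twist1 then stood at 381 against 252 CPM, Rgs5 at 152 against 135 and Tdo2 at 41.0 against 85.0. The genes of these splits were chosen after their values in the knockout cells had been seen.

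**Figure D5:**
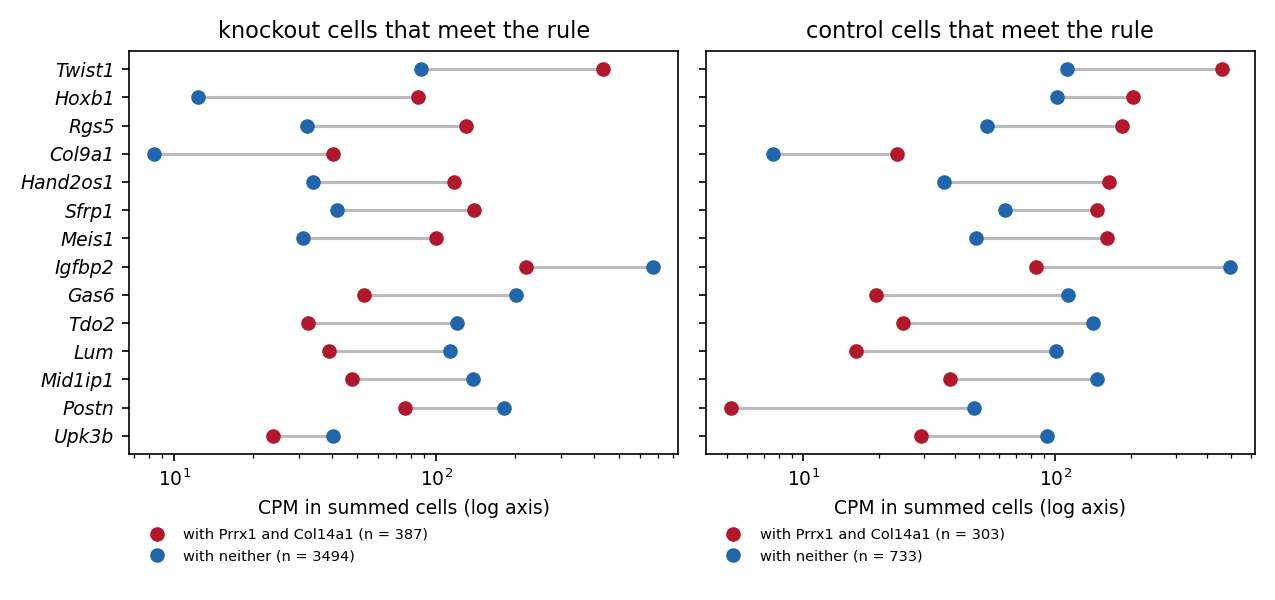
Summed CPM (log axis) of 14 genes in cells that met the rule, split into those with both Prrx1 and Col14a1 and those with neither, in the knockout and the control library. Twist1 is higher in cells with both genes in each library (432 against 87.1 CPM in the knockout, 459 against 111 in the control), and Tdo2 lower (32.4 against 120.1, and 24.9 against 142).

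Clustering the Tac2/Bnc2 cells alone gave 5 groups, 3 of which were led by cell cycle genes. The largest group, 1379 cells (27.4%), was led by Mxd4, an antagonist of Myc, and the IGF binding protein Igfbp5, and had the proliferation marker Mki67 at 16.01 CPM and Cenpf at 10.1 against 384. A further 1315 cells (26.2%) had Mki67 at 598 CPM, with Ube2c and Cenpf, genes of mitosis. Another 1301 (25.9%) were led by histone genes such as Hist1h1b (530.5 against 126 CPM in the other members), and 892 (17.7%) by Ccnb2 and Pttg1. Tac2 stayed between 197 and 243 CPM over these 4 groups and Bnc2 between 48.6 and 67.4.

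The last group, 140 cells (2.78%), was led by Spink1 (542 against 3.72 CPM), Ttr (224 against 1.43), Ctla2a (251 against 3.43) and Dppa5a (177 against 2.41), which belong to different cell classes. Tac2 stood at 55.0 CPM in it and Bnc1 at 30.4, and 67.9% of its cells had Prrx1. Doublets were not called, and their part in this group was not tested. Among all Tac2/Bnc2 cells, 252 had no Tac2 UMI, and these had Upk3b at 15.5 against 38.7 CPM and Smoc2 at 154 against 346 in the cells with Tac2.

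The 305 knockout cells that only the Hox part kept out had Tac2 at 143 CPM and Bnc2 at 50.4. Their Prrx1 stood at 28.2 CPM (25.7 to 30.9). These cells had met the rule's UMI minimum, so the levels of its genes cannot show closeness to the Tac2/Bnc2 cells. Against the 305 cells, 127 genes (1.1%) were higher in the Tac2/Bnc2 cells by 1.5-fold or more and 195 (1.69%) lower. The median was -0.02 on the log2 scale. Higher in the Tac2/Bnc2 cells were Mab21l2 (55.1 against 22.3 CPM), Robo2 (87.4 against 36.6) and Hoxb1 (28.2 against 14.2). Lower were Greb1 (19.7 against 68.4), Sox2 (11.6 against 40.5), Crabp2 (21.9 against 73.1) and Dusp6 (14.9 against 42.0). The median depth was 47457 UMIs in the 305 cells and 31576 in the Tac2/Bnc2 cells, and its part in the differences was not tested.

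Against control cells that met the same rule, 12 of 25 matrix genes were higher in the Tac2/Bnc2 cells and 10 of 10 cardiomyocyte genes lower, by 1.5-fold or more. Of the 11519 genes 1311 (11.4%) were higher by 1.5-fold or more and 627 (5.44%) lower, and the median was 0.01 on the log2 scale. Postn stood at 165 against 26.6 CPM, the laminin chain Lama4 at 49.4 against 9.74, the scaffold protein Ahnak at 1332 against 302, and the growth factor Igf2 at 2389 against 565. The other cells of the libraries differed in the same direction, with Postn at 154 CPM in the knockout against 14.95 in the control and Igf2 at 2269 against 562. Lower in the Tac2/Bnc2 cells were Myl7 (4.23 against 198), the imprinted gene Mest (89.4 against 1936), Ttn (6.04 against 79.5) and Crabp2 (21.9 against 172). In the other cells Mest likewise stood at 104 CPM in the knockout and 1441 in the control, and Myl7 at 20.3 and 1167.5. The cardiomyocyte list summed to 224 CPM in the other knockout cells and 3386 in the other control cells. The matrix list summed to 3314 and 1935 CPM in the same cells. The differences of both lists were thus not particular to the Tac2/Bnc2 cells.

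The matrix list also had 2 lower genes and a median of 0.58, and of 15 basement membrane genes 11 were higher and 0 lower, with a median of 0.85. The cardiomyocyte list had a median of -2.33. Upk3b was lower in the Tac2/Bnc2 cells (37.7 against 57.6 CPM) and Bnc1 higher (96.2 against 51.2). With 1 library of each genotype, genotype and library cannot be told apart.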

How the data were processed

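The values are UMI counts, not normalized, which the authors deposited as 1 matrix per library, written by Cell Ranger 4 per the file headers. R 4.1.1 and the builds GRCm39 and mm39 are also named, per the submitters' processing notes. Cells were prepared with a droplet kit and sequenced, per the labels' protocols, and how barcodes were corrected was not given in the sources used here. Rows that share a symbol were summed.

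Barcodes with at least 15000 UMIs, 500 genes and at most 10% mitochondrial UMIs were kept, which left out 24 control and 50 knockout barcodes at that depth. Doublets were neither called nor removed. The members and the gene lists were chosen with earlier results of these data known.

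UMIs were summed over the cells of a group and turned into CPM, and log2 ratios were taken of CPM plus 1. Genes at 2 CPM or more over all kept knockout cells were compared, without rule genes, and called by size at 1.5-fold. With 1 library per group no test was made. Sums carry exact Poisson and shares exact Clopper-Pearson 95% intervals. Endothelial-like, endoderm-like and pluripotent-like cells had at least 2 UMIs in at least 3 markers, and haematopoietic cells at least 5 UMIs in at least 3 globins. Clusters and neighbours used 2000 variable genes without rule, Hox or mitochondrial genes, 30 components, 15 neighbours and Leiden resolution 1, or 0.5 among members (scanpy 1.11.5, leidenalg 0.10.2). The summing and calling steps were tested on simulated data. These were drawn from 1 common profile, with planted changes above 1.5-fold and a minimum level above 2 CPM. That test did not cover the choice of members or genes near these limits.

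By rule, the genes named were the 15 with the largest ratios, higher and lower, against other knockout cells, and 8 against other groups, at a mean of 20 CPM, without predicted, ribosomal protein or mitochondrial genes. For lists they were up to 4 genes by level and 3 by ratio, and for groups among members 6. Other named genes, among them those of the class-free comparison, the bins and the splits by Prrx1, were chosen after their values were seen.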

Additional observations from a re-analysis of the deposited data

How the results depend on the processing

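Every limit below rests on 1 library per genotype and on counting error alone, and shares of cells with a UMI depend on depth. The member share of knockout cells, 53.2%, was 61.5% with 3 rule UMIs, 39.4% with 6, 17.1% without Tac2, 45.3% with at least 2 of the 4 genes detected, 33.8% with none of the 7 Hox-part genes, 30.5% on thinned cells and 55.9% at 5% mitochondrial UMIs. In the same order the share in control cells, 30.5%, was 38.6%, 19.4%, 15.9%, 24.3%, 25.9%, 9.69% and 32.1%, and it was 23.5% with 0 Actc1 UMIs and 29.3% without the deepest cells. The share of members among the neighbours of members, 72.8%, was in that order 78.6%, 61.3%, 34.3%, 64.6%, 48.7%, 45.9% and 76.1%, and 74.1% with a higher UMI minimum per cell and 70.6% with 15 components.

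The count of higher genes, 138, was 219 with 3 rule UMIs, 79 with 6, 46 without Tac2, 80 with at least 2 genes, 29 with no Hox-part gene, 53 on thinned cells and 226 at 5% mitochondrial UMIs. It was 76 with equal weight per cell, 63 with a prior of 5 CPM and 90 with a filter at 10 CPM. The count of lower genes, 580, was 324 without Tac2, 376 with a prior of 5 CPM, 985 with no filter and 197 with the filter at 10 CPM. Against knockout cells with 0 rule UMIs, 1044 genes were higher and 1044 lower. Without the endothelial-like, endoderm-like and pluripotent-like cells on the other side, 48 were higher and 111 lower, and in the class-free comparison, added after the data were seen, 25 and 139.

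The median log2 ratio of the lateral plate and limb list, 0.31, was 0.14 with no Hox-part gene, 0.95 against cells with 0 rule UMIs, 0.068 without the 3 classes and 0.073 class-free. That of the matrix list, 0.34, was 0.43 with 3 rule UMIs, 0.88 against cells with 0 rule UMIs, 0.045 without the 3 classes and 0.012 class-free. The smooth muscle median lay between -0.13 and 0.17 under its 21 alternatives. Neither of the lateral plate and matrix medians changed sign under their 21 alternatives. Leaving out the 140-cell group, also added after the data were seen, moved none of these counts by over 1.5 times. The cause of each shift was not tested. No paired analysis was possible because each genotype was 1 library.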
